A study of Sus scrofa with 6 samples.

Results

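The genes described here encode the machinery that brings proteins into the endoplasmic reticulum (ER), folds them, exports them and removes those that fail to fold. They are the genes that the deposited gene table annotates with the KEGG pathway of protein processing in the ER, without the apoptosis genes *BAX* and *BAK1*, which carry the same code (2 rows left out). The rule selected 152 of 24358 genes and used no expression value. Of these members, 134 passed the filter on low values, which asked for 1 or more FPKM (fragments scaled to transcript length and to the mapped fragments of the library) in 2 or more libraries, as did 10639 genes in all. The members were sorted into 10 roles from textbook knowledge, and 1 gene, *KDSR*, was left without a role because it carries the code through the ortholog number of *BCL2*.

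Secretory and membrane proteins enter the ER through the SEC61 channel, where the oligosaccharyltransferase attaches N-linked glycans and lectins, Hsp70 and Hsp90 chaperones and protein disulfide isomerases help them fold. Folded cargo leaves in vesicles coated by COPII, whereas misfolded proteins are moved back to the cytosol, ubiquitinated and degraded, a route called ER-associated degradation (ERAD). Unfolded protein in the lumen activates the sensors IRE1, PERK and ATF6, which together drive the unfolded protein response. In the blastocyst, adhesion and transport proteins of the trophectoderm, its outer epithelium, reach the cell surface by this route.

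The data came from single-embryo RNA sequencing of 6 pig embryos at day 5, with 1 embryo per library. The 3 control embryos were not injected, and the 3 *CARM1* KD embryos grew from MII oocytes that had received about 10 pl of 50 μM siRNA against 3 sites in the coding region of *CARM1*, an arginine methyltransferase. The control group therefore lacks the injection itself, and whether these embryos were fertilized or parthenogenetic is not given for the libraries. The comparison asks whether members of the ER machinery differed in RNA level between *CARM1* KD and control embryos.

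Estimated counts summed to between 26341924 and 41727594 per library. *CARM1* itself measured 1.96, 4.54 and 1.26 FPKM in control 1, 2 and 3, and 0.130, 0.150 and 0.274 FPKM in *CARM1* KD 1, 2 and 3, so that the groups did not overlap. The labels call all 6 embryos blastocysts, and control 2 went against that label. The summed FPKM of 6 trophectoderm markers was 4.46 in control 2 and 49.6 to 347 in the other libraries, with *KRT18* at 0 and *KRT8* at 0.0484 in control 2. Among these 6, *CDX2* was scarce and went the other way, at 0.445 FPKM in control 2 and 0 to 0.136 FPKM elsewhere. The 7 oocyte markers in the table summed to 2371 FPKM in control 2 against 19.0 to 817 elsewhere. *CARM1* KD 3, which had the next highest oocyte sum, held no count of *KRT8*, *KRT18* or *GATA3* but 35.1 FPKM of the trophectoderm factor *TFAP2C*. Inner cell mass markers (4 of 5 in the table) summed to 2.56 FPKM in control 2 and 36.7 to 158 FPKM in the other libraries. Markers of cumulus cells reached a sum of at most 0.971 FPKM, with 3 of 7 at 0 in every library, and those of blood at most 9.62 FPKM. Genes of the mitochondrial genome took 46.0% of the counts in control 2 and 14.5 to 23.9% in the other libraries. The part of these differences in the results below was not tested, and values are therefore given with and without control 2 and *CARM1* KD 3 where they carry a result. In whole embryos, fewer cells of a type and less RNA per cell cannot be told apart.

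No member of the ER machinery passed the test between *CARM1* KD and control embryos. With edgeR's quasi-likelihood test and Benjamini-Hochberg adjustment over 10639 genes, 0 of 134 tested members reached an adjusted p under 0.05 in either direction, and each had an adjusted p of 0.9999. The same test called 0 of all genes in either direction, a share of 0%. Even *CARM1*, the target of the siRNA, was not called, with a log2 fold change of -3.98 (SE 1.02, edgeR unadjusted p = 0.00516). The lowest adjusted p of any gene was 0.9999. At an unadjusted p under 0.05, 0 members were higher and 0 lower, against 0.338% of all genes tested that were higher and 0.348% that were lower. DESeq2 called 0 members at an adjusted p under 0.05 and 2 members, *UBQLN2* and *EIF2AK4*, at an unadjusted p under 0.05 (1.49% of members). Over all genes it called 12 at an adjusted p under 0.05 (0.113%) and 193 at an unadjusted p under 0.05 (1.81%), so that the share of members lay near that of all genes.

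The fold changes of the members lay around those of all genes. The log2 fold change (*CARM1* KD over control) was above 0 for 73 members and below 0 for 61, a share of 54.5% above 0 against 55.3% of all genes, and its median was 0.07 against 0.10. Without control 2 the split was 53 above and 81 below 0, or 39.6% above 0 against 56.4% of all genes, with medians of -0.08 and 0.10. Without *CARM1* KD 3 it was 74 above and 60 below 0, with medians of 0.18 and 0.06. The share above 0 was 55.2%, against 52.1% of all genes. The split also turned without *CARM1* KD 1, to 66 above and 68 below 0 with a median of -0.02. The share above 0 was then 49.25%, against 52.7% of all genes, whose median was 0.06. Under a filter of FPKM 5 in 3 libraries the split was 41 above and 43 below 0, with a median of -0.01. There 48.8% of members were above 0, against 53.1% of all genes, whose median was 0.07. The members as a group therefore had no stable direction. The standard error of a member's log2 fold change ranged from 0.56 to 2.14 with a median of 0.88, so that differences of the size seen here, from -1.61 to 1.86, could not be separated from the spread between embryos.

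**Figure D1:**
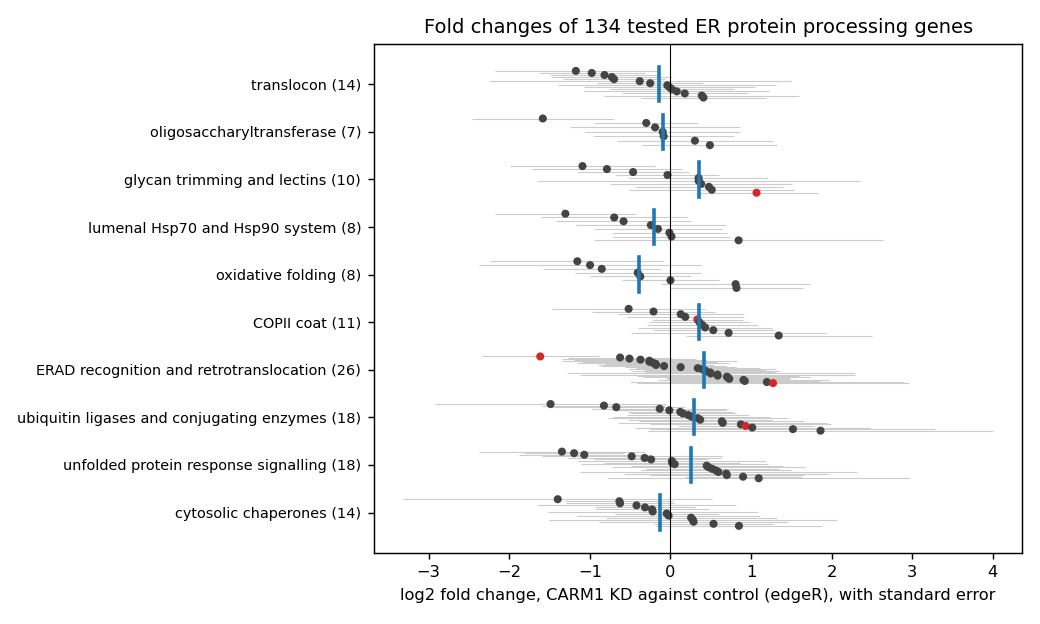
Log2 fold change (*CARM1* KD over control, edgeR) of the 134 tested members on the horizontal axis, grouped by role, 1 point per gene with its standard error, red where the groups did not overlap, and a blue bar at the median of each role. The points of every role lie on both sides of 0, and the medians run from -0.39 for oxidative folding to 0.41 for ERAD recognition and retrotranslocation.

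The medians of the roles moved with the same embryos. Without control 2, all 14 genes of the translocon role were below 0 (median -0.43), with *BCAP31*, *CKAP4* and *RRBP1* counted in that role. The same held for 6 of 7 oligosaccharyltransferase genes (median -0.56). Over all genes tested, 56.4% were above 0 in this setting, with a median of 0.10. The medians of ERAD, COPII, ubiquitin and unfolded protein response genes came to 0.02, 0.08, 0.02 and 0.05. Without *CARM1* KD 3, 7 of the 14 translocon genes were above 0 (median -0.33), and the oligosaccharyltransferase median was 0.17. Of all genes tested, 52.1% were then above 0 (median 0.06). With both embryos left out, 12 of the 14 translocon genes were below 0 (median -0.36). In that setting 50.8% of all genes tested were above 0 (median 0.01). No member had an adjusted p under 0.05 with edgeR in any of these settings.

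In 5 members every *CARM1* KD embryo lay on one side of every control embryo in FPKM. These were *GANAB*, *SEC23B*, *RNF5* and *DERL3*, which were higher (2.99% of members, against 3.82% of all genes tested), and *UBQLN2*, which was lower (0.746% of members, against 1.07% of all genes tested). Such separation was therefore not more frequent among members than among all genes. With 3 embryos in each group an exact permutation test (2-sided) cannot give a p below 0.1, and none of these 5 genes passed edgeR's test.

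*UBQLN2* encodes a ubiquilin, a shuttle that carries ubiquitinated proteins to the proteasome, and lies on chromosome X from 48948120 to 48951471. Its FPKM was 14.0, 25.5 and 13.3 in the controls (mean 17.6 ± 6.83 SD, n = 3), followed by 4.66, 3.05 and 13.2 FPKM in *CARM1* KD 1, 2 and 3 (6.97 ± 5.46). *CARM1* KD 3 lay next to the lowest control, whereas *CARM1* KD 1 and 2 lay far below. The log2 fold change was -1.61 (SE 0.73, edgeR unadjusted p = 0.0585, adjusted p = 0.9999), the smallest p of any member. It was -1.21 without control 2, and -2.29 without *CARM1* KD 3, where edgeR's unadjusted p was 0.0357. When any other embryo was left out, edgeR's unadjusted p was between 0.0792 and 0.187.

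*GANAB* encodes the catalytic subunit of glucosidase II, which trims glucose from N-linked glycans so that the lectins can bind and release their clients (chromosome 2, 9100717 to 9118394). Its values were 5.49, 1.48 and 6.15 FPKM in the controls (4.37 ± 2.53) and 7.48, 7.76 and 15.9 FPKM in *CARM1* KD embryos (10.4 ± 4.76). The lowest value was that of control 2 and the highest that of *CARM1* KD 3. The log2 fold change was 1.07 (SE 0.76), 0.65 without control 2 and 0.83 without *CARM1* KD 3. It was the single member whose groups stayed apart under all 3 scalings tried. These were FPKM, TMM-scaled counts per library, and FPKM rescaled to its sum without mitochondrial genes.

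*RNF5* encodes a membrane-bound ubiquitin ligase of ERAD (chromosome 7, 24215490 to 24217983). It was measured at 14.3, 2.66 and 13.3 FPKM in the controls (10.1 ± 6.44) and at 17.3, 23.8 and 19.2 FPKM in *CARM1* KD embryos (20.1 ± 3.38). Control 2 stood below the rest, and the log2 fold change of 0.93 (SE 0.84) was 0.47 without it. *SEC23B* encodes a subunit of the inner COPII coat (chromosome 17, 26760046 to 26801665). The 3 controls measured 16.4, 14.1 and 12.5 FPKM (14.3 ± 2.01) and the *CARM1* KD embryos 19.8, 17.4 and 21.4 FPKM (19.5 ± 2.02). *SEC23B* varied little within either group, and its log2 fold change of 0.33 (SE 0.56) stayed between 0.27 and 0.37 when any 1 embryo was left out. *DERL3*, a derlin that helps to move misfolded proteins out of the ER (chromosome 14, 49871218 to 49877672), was scarce, at 1.202, 0 and 1.08 FPKM in the controls and 2.10, 2.26 and 1.205 FPKM in *CARM1* KD embryos. Its highest control and lowest *CARM1* KD value nearly touched, and the log2 fold change of 1.27 (SE 1.69) was 0.67 without control 2. Coordinates are those of the deposited table, whose genes overlapped the RefSeq genes of the same symbol in the pig assembly Sscrofa11.1 for 151 of 152 members.

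**Figure D2:**
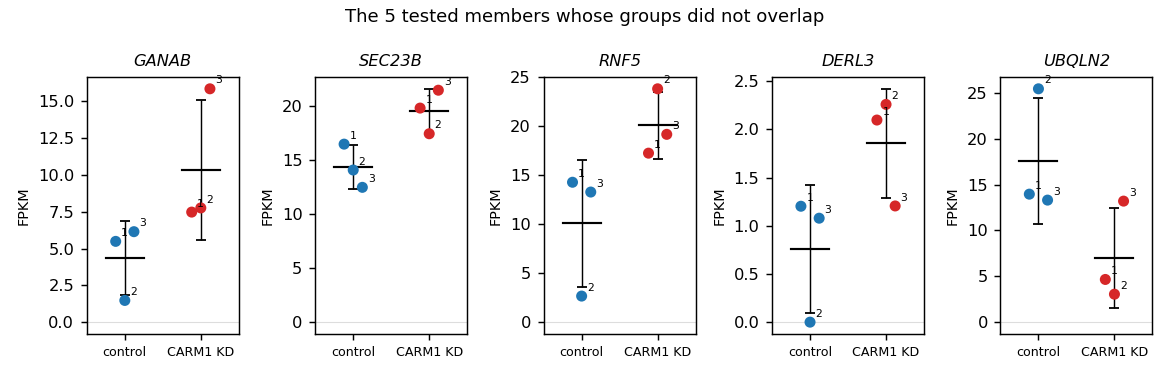
FPKM of the 5 members whose groups did not overlap, 1 point per embryo, with the mean and SD of each group (n = 3). *UBQLN2* is lower in *CARM1* KD embryos and the other 4 genes are higher, with *CARM1* KD 3 next to the lowest control for *UBQLN2* (13.2 against 13.3 FPKM).

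Which members were separated depended on the scaling. On TMM-scaled counts the groups did not overlap for *GANAB* and *SEC23B*, which were higher, and *UBQLN2* and *EIF2AK4*, which were lower. These were 4 members, or 2.99% of members against 4.34% of all genes. With FPKM rescaled to its sum without mitochondrial genes, *RNF5*, *RPN1*, *GANAB*, *DERL1* and *DERL3* were higher and *EIF2AK4* was lower. These were 6 members, or 4.48% of members against 5.11% of all genes. *EIF2AK4*, named after its values were seen, encodes GCN2, the kinase of eIF2α that responds to uncharged tRNA. It measured 13.7, 5.78 and 10.96 FPKM in the controls and 3.46, 4.55 and 6.58 FPKM in *CARM1* KD embryos, where only control 2 lay within the range of the *CARM1* KD group. Its log2 fold change was -1.19 (SE 0.62, edgeR unadjusted p = 0.0937, adjusted p = 0.9999). Its edgeR unadjusted p was under 0.05 without control 2, but not when any other single embryo was left out.

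The translocon genes included the most abundant member. All 14 were tested, 5 with a log2 fold change above 0 and 9 below 0, with a median of -0.14. *SSR4*, a subunit of the TRAP complex that assists SEC61, measured 592, 165 and 496 FPKM in the controls (418 ± 224) and 356, 141 and 334 FPKM in *CARM1* KD embryos (277 ± 118). Control 2 and *CARM1* KD 2 were both low, and the log2 fold change of -0.73 (SE 0.75) was -1.10 without control 2. *SEC61G*, a small subunit of the channel, was read at 103, 1.25 and 181 FPKM in the controls and at 130, 97.5 and 60.2 FPKM in *CARM1* KD embryos, with a log2 fold change of -0.04 (SE 1.35). The other small subunit, *SEC61B*, was also low in control 2, at 7.41 FPKM against 81.8 to 187 FPKM elsewhere. *SEC61A1*, which forms the pore, showed another order, with 72.2 FPKM in control 2 and 29.6 to 76.1 FPKM in the other embryos.

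The RNA levels of the channel subunits therefore did not keep a fixed ratio across embryos. The widest departure was that of control 2, where *SEC61G* had 145 counts. The FPKM of *SEC61G* over that of *SEC61A1* was 3.06, 0.0173 and 2.38 in control 1, 2 and 3 and 4.29, 3.30 and 0.992 in *CARM1* KD 1, 2 and 3. The TRAP subunits *SSR2* and *SSR3* followed the small SEC61 subunits, at 2.22 and 2.51 FPKM in control 2, and their lowest value in any other embryo was that of *CARM1* KD 3 (9.63 and 40.01 FPKM). *SSR1*, in the same complex, measured 30.4 FPKM in control 2 and 45.01 to 118 FPKM in the others. *SEC61A2*, another form of the pore subunit, was highest in control 2 (12.9 FPKM) and in *CARM1* KD 3 (9.33 FPKM) and measured 0.995 to 4.83 FPKM in the remaining embryos.

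**Figure D3:**
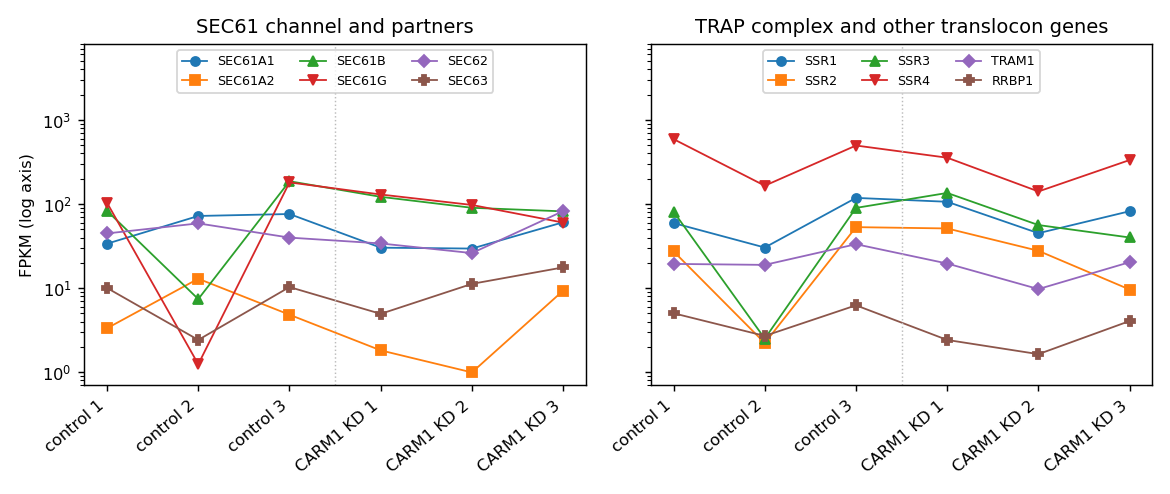
FPKM (log axis) of 12 translocon genes in each of the 6 embryos, with lines that only join the points of a gene. In the left panel *SEC61G* and *SEC61B* lie in control 2 at 1.25 and 7.41 FPKM while *SEC61A1*, *SEC61A2* and *SEC62* do not, and in the right panel *SSR2* and *SSR3* are lowest in control 2.

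Of the 7 oligosaccharyltransferase genes, all tested, 2 had a log2 fold change above 0 and 5 below 0 (median -0.10). *DAD1*, a small subunit of the complex that is also known as a defender against cell death, measured 206, 22.7 and 414 FPKM in the controls (214 ± 196) and 259, 216 and 105 FPKM in *CARM1* KD embryos (193 ± 79.6). *DDOST*, another accessory subunit, was read at 48.7, 14.3 and 135 FPKM in the controls and 149, 62.0 and 47.9 FPKM in *CARM1* KD embryos. Both genes were lowest in control 2, their groups overlapped, and their log2 fold changes were -0.19 (SE 1.05) and 0.30 (SE 0.97). *TUSC3*, an oxidoreductase subunit, went the other way, at 25.8 FPKM in control 2 and 2.26 to 10.3 FPKM in the others. The catalytic subunits differed as well. *STT3A*, which acts as the chain enters, exceeded *STT3B*, which acts on sites that were missed, by 2.01 to 5.58 times in 5 embryos, whereas the ratio was 0.667 in control 2.

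Glycan trimming and lectin genes numbered 13, of which 10 were tested, 6 above and 4 below 0 (median log2 fold change 0.35). *LMAN2*, a cargo lectin of the early secretory pathway and the most abundant gene of this role, overlapped between the groups, at 104, 137 and 142 FPKM in the controls and 152, 89.2 and 181 FPKM in *CARM1* KD embryos (log2 fold change -0.04, SE 0.63). *CALR*, the lumenal lectin calreticulin, measured 68.0, 11.3 and 71.2 FPKM in the controls and 132, 52.7 and 8.49 FPKM in *CARM1* KD embryos. Control 2 and *CARM1* KD 3 were the 2 low embryos for *CALR*, and its log2 fold change of 0.38 (SE 1.13) was -0.09 without the one and 0.89 without the other. Its membrane-bound relative *CANX* was low in control 2 alone, at 2.55 FPKM against 14.7 to 24.9 FPKM in the others. *UGGT1*, the folding sensor that adds glucose back to misfolded glycoproteins, exceeded its paralog *UGGT2* by 1.72 to 7.57 times in 5 embryos and was 0.182 of it in control 2.

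The lumenal Hsp70 and Hsp90 genes were all tested (8 genes, 2 above and 6 below 0, median -0.20). *HSPA5* encodes BiP, the Hsp70 of the ER lumen and a main target of the unfolded protein response. It measured 41.7, 134 and 39.99 FPKM in the controls (71.8 ± 53.7) and 56.6, 12.04 and 28.4 FPKM in *CARM1* KD embryos (32.4 ± 22.5). Control 2 was high and *CARM1* KD 2 low, and the other 4 embryos lay between 28.4 and 56.6 FPKM. The log2 fold change of -1.30 (SE 0.88, edgeR unadjusted p = 0.177, adjusted p = 0.9999) was -0.42 without control 2. *HSP90B1*, the lumenal Hsp90, was read at 72.9, 41.5 and 66.9 FPKM in the controls and 25.6, 92.9 and 71.9 FPKM in *CARM1* KD embryos, so that it was highest in the embryo where *HSPA5* was lowest. *DNAJC3*, a lumenal cochaperone that binds unfolded proteins, was also lowest in *CARM1* KD 2, at 3.55 FPKM against 14.3 to 25.3 FPKM elsewhere. *SIL1*, the nucleotide exchange factor of BiP, had no count in control 2 and 0.701 FPKM in *CARM1* KD 3, against 2.23 to 5.61 FPKM in the other embryos.

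Among the 8 oxidative folding genes, all tested, 3 were above and 5 below 0, and their median of -0.39 was the lowest of the 10 roles. *PDIA3*, a disulfide isomerase that works with the lectins, measured 98.9, 198 and 70.4 FPKM in the controls (122 ± 66.8) and 93.4, 32.6 and 109 FPKM in *CARM1* KD embryos (78.2 ± 40.2). *ERO1B*, which reoxidizes the isomerases, spanned a wider range, with 21.0, 43.4 and 3.90 FPKM in the controls and 7.19, 0.373 and 37.4 FPKM in *CARM1* KD embryos. Both genes were highest in control 2 and *CARM1* KD 3 and lowest in *CARM1* KD 2. Their log2 fold changes were -0.85 (SE 0.73) and -0.997 (SE 1.38), and without control 2 they were -0.26 and -0.02. Without *CARM1* KD 3 they were -1.10 and -2.77, so that the value of *ERO1B* depended on either embryo. The related oxidase *ERO1A* was nearly flat, from 1.27 to 2.20 FPKM, so that the ratio of *ERO1B* to *ERO1A* ran from 0.293 in *CARM1* KD 2 to 26.7 in *CARM1* KD 3. *P4HB*, the founding disulfide isomerase, was highest in *CARM1* KD 2 (15.8 FPKM) and lowest in control 2 (1.35 FPKM), the reverse of the order of *PDIA3* in these 2 embryos.

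The COPII genes had 9 of 11 tested members above 0 and 2 below 0, with a median of 0.36. *SAR1A*, a GTPase that starts coat assembly, measured 86.9, 2.07 and 99.7 FPKM in the controls and 152, 101 and 64.8 FPKM in *CARM1* KD embryos. Without control 2 its log2 fold change of 0.72 (SE 1.205) was 0.14. *SEC13*, a subunit of the outer coat, was read at 32.5, 17.0 and 39.0 FPKM in the controls (29.5 ± 11.3) and 30.5, 41.3 and 53.0 FPKM in *CARM1* KD embryos (41.6 ± 11.3). Control 2 was the lowest embryo for both genes, and the log2 fold change of *SEC13*, 0.36 (SE 0.62), was 0.08 without it. *SEC31A*, its partner in the outer coat, was low in control 2 as well (3.17 FPKM against 7.19 to 13.2 FPKM). *PREB*, the exchange factor for SAR1, had the highest log2 fold change of this role, 1.34 (SE 1.16), with 0.117 FPKM in control 2 and 2.71 to 8.23 FPKM in the others.

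Of 22 genes assigned to unfolded protein response signalling, 18 were tested, 12 above and 6 below 0 (median 0.25). Both kinase sensors lay below the filter. *ERN1*, which encodes IRE1, measured 0.318, 1.08 and 0.179 FPKM in the controls and 0.0862, 0 and 0.410 FPKM in *CARM1* KD embryos, and *EIF2AK3*, which encodes PERK, 0.296, 0 and 1.32 FPKM against 0.934, 0.513 and 0.981 FPKM. The third sensor, *ATF6*, was read at 18.5, 37.8 and 4.75 FPKM in the controls (20.3 ± 16.6) and 6.60, 1.71 and 21.9 FPKM in *CARM1* KD embryos (10.1 ± 10.6). Its log2 fold change was -1.35 (SE 1.03), -0.45 without control 2 and -2.45 without *CARM1* KD 3, and the groups overlapped each time. Its paralog *ATF6B* ranged only from 1.62 to 3.55 FPKM and was highest in *CARM1* KD 2, where *ATF6* was lowest.

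The transcription factors downstream of the sensors did not share an order among embryos. *XBP1*, whose mRNA IRE1 splices, measured 4.15, 1.43 and 3.81 FPKM in the controls and 4.20, 7.78 and 1.46 FPKM in *CARM1* KD embryos (log2 fold change 0.56, SE 0.93, or 0.20 without control 2 and 0.98 without *CARM1* KD 3). *ATF4*, which is translated when eIF2α is phosphorylated, was read at 32.6, 17.8 and 5.38 FPKM in the controls and 17.4, 27.8 and 9.94 FPKM in *CARM1* KD embryos (log2 fold change 0.02, SE 0.85). *DDIT3*, the factor CHOP that is linked to cell death under prolonged stress, measured 7.50, 37.8 and 4.25 FPKM in the controls and 26.6, 2.75 and 10.3 FPKM in *CARM1* KD embryos. *DDIT3* was high in control 2 and *CARM1* KD 1, and its log2 fold change of -0.48 (SE 1.12) was 1.11 without control 2. *PPP1R15A*, the phosphatase subunit that reverses eIF2α phosphorylation, had a log2 fold change of 0.90 (SE 0.73) and was highest in *CARM1* KD 3, at 8.28 FPKM against 1.74 to 6.27 FPKM elsewhere.

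*EIF2S1*, which encodes eIF2α and is the most abundant gene of this role, measured 144, 6.23 and 226 FPKM in the controls (125 ± 111) and 193, 113 and 92.2 FPKM in *CARM1* KD embryos (133 ± 53.0). *NFE2L2*, the oxidative stress factor NRF2 that PERK can phosphorylate, was read at 52.6, 2.23 and 15.6 FPKM in the controls and 58.8, 27.0 and 6.76 FPKM in *CARM1* KD embryos. Control 2 and *CARM1* KD 3 were the lowest embryos for both, and their log2 fold changes were 0.02 (SE 1.16) and 0.47 (SE 1.19). *MBTPS1* and *MBTPS2* encode the proteases that release ATF6 from its membrane anchor, and their ratio was 0.147 in control 2 and 3.49 in *CARM1* KD 2, with 0.348 to 0.843 in the others.

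**Figure D4:**
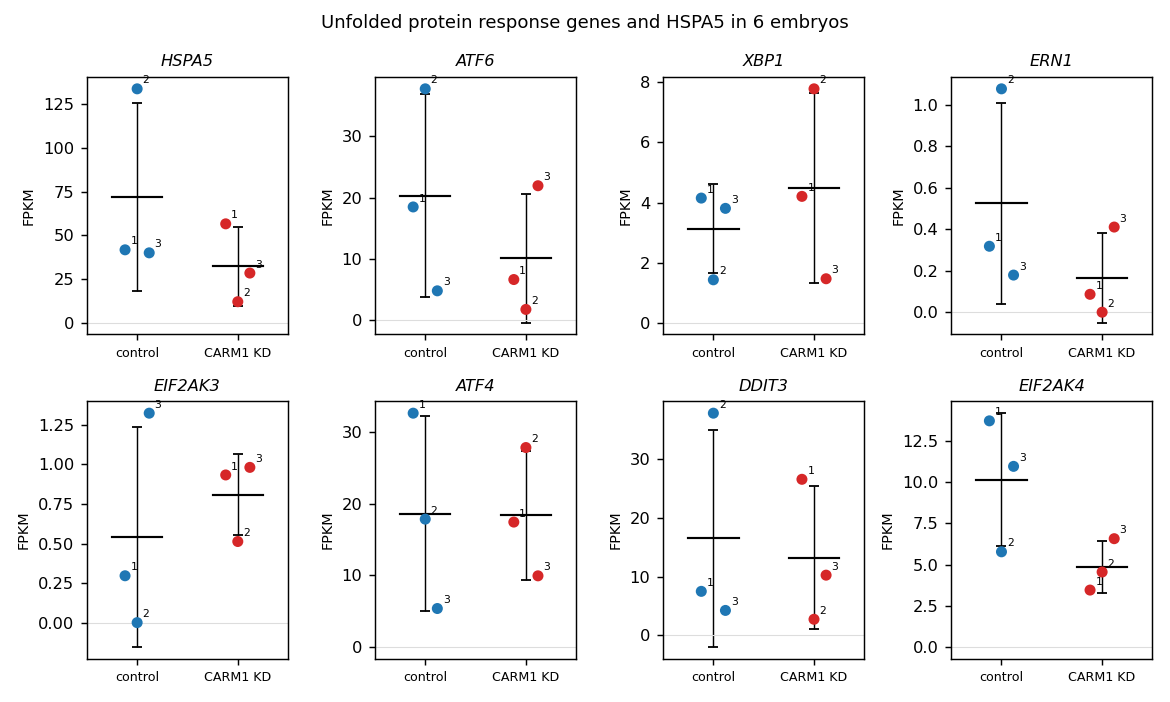
FPKM of *HSPA5*, the 3 stress sensors, *EIF2AK4* and the factors *XBP1*, *ATF4* and *DDIT3*, 1 numbered point per embryo, with the mean and SD of each group (n = 3). The control and *CARM1* KD points overlap for each gene, with *HSPA5* highest in control 2 (134 FPKM) and lowest in *CARM1* KD 2 (12.04 FPKM).

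ERAD recognition and retrotranslocation was the largest role, with 29 genes, of which 26 were tested, 16 above and 10 below 0 (median 0.41). *SELENOS*, a selenoprotein that links the retrotranslocation channel to the ATPase VCP, measured 71.7, 42.8 and 129 FPKM in the controls and 105, 34.8 and 105 FPKM in *CARM1* KD embryos (log2 fold change -0.18, SE 0.72). *UFD1*, a cofactor of VCP, was read at 33.6, 2.63 and 57.8 FPKM in the controls and 71.7, 48.2 and 41.1 FPKM in *CARM1* KD embryos. The log2 fold change of *UFD1* was 0.70 (SE 1.03), and 0.15 without control 2. *VCP* itself measured 4.76 FPKM in control 2 and 12.6 to 48.3 FPKM in the others, and *NPLOC4*, the partner of UFD1, had no count in control 2. *NGLY1*, which removes glycans from exported proteins, was instead highest in control 2 (46.7 FPKM) and *CARM1* KD 3 (58.4 FPKM), against 7.82 to 28.4 FPKM in the other embryos.

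For ubiquitin ligases and conjugating enzymes, 18 of 20 genes were tested, 13 above and 5 below 0 (median 0.30). *RBX1*, the RING subunit of cullin ligases, measured 180, 103 and 172 FPKM in the controls (152 ± 42.3) and 235, 133 and 98.6 FPKM in *CARM1* KD embryos (156 ± 71.2), and its log2 fold change was -0.01 (SE 0.70). *UBE2D3*, a conjugating enzyme of broad use, was read at 94.6, 217 and 109 FPKM in the controls and 54.3, 64.8 and 201 FPKM in *CARM1* KD embryos. It was high in control 2 and *CARM1* KD 3, and its log2 fold change was -0.67 (SE 0.85), -0.17 without control 2 and -1.33 without *CARM1* KD 3. The paralog *UBE2D2* was at 1.18 FPKM in control 2, from only 17 counts. There *UBE2D3* exceeded it 184 times, against 2.85 to 7.48 times in the others. The gene row of *SKP1* that carries the pathway code (ENSSSCG00000035776) had no count in any embryo, whereas another row described as *SKP1*, without the code, measured 236 to 803 FPKM.

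Cytosolic chaperones numbered 18, of which 14 were tested, 5 above and 9 below 0 (median -0.13). *HSPA8*, the constitutive Hsp70, measured 433, 42.2 and 313 FPKM in the controls (263 ± 200) and 351, 312 and 92.3 FPKM in *CARM1* KD embryos (252 ± 139.5), with a log2 fold change of -0.02 (SE 1.14). *HSP90AB1*, the constitutive Hsp90, was read at 157, 49.9 and 49.2 FPKM in the controls and 111, 159 and 16.4 FPKM in *CARM1* KD embryos, with a log2 fold change of 0.26 (SE 1.06). *DNAJB1*, a cochaperone of Hsp70, was the steadiest member, with 68.0 to 105 FPKM and a highest value only 1.54 times the lowest. Because *HSPA8* was low in control 2 and *HSPA5* high, the ratio of the lumenal to the cytosolic Hsp70 was 3.17 in that embryo and 0.0386 to 0.308 in the other 5. The lens crystallin *CRYAB* was read above 1 FPKM in control 1 alone (5.37 FPKM), the highest value of any untested member.

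The 18 members that were not tested comprised 6 with no count in any embryo and 12 with counts in some. Those without a count included *SEL1L2*, *CRYAA*, *DNAJC5B*, *FBXO2* and the *SKP1* row, most of which are known from testis, lens or brain. The 12 read in some embryos included the sensors *ERN1* and *EIF2AK3*, the first glucosidase of glycan trimming, *MOGS*, and the mannosidase-like *EDEM3*.

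The embryos differed widely from each other in most members. Among 121 members read in all 6 embryos, the highest value was a median of 6.26 times the lowest, against 8.002 times for 7804 such genes in all. The ratio was over 10 for 37 members (30.6%, against 42.8% of all such genes) and under 2 for 3, which were *DNAJB1*, *SEC23B* and *ERO1A*. Summed over members, FPKM was 4254, 2510 and 4762 in the controls and 4415, 3289 and 3788 in *CARM1* KD embryos, with control 2 below the other 5 embryos. With mitochondrial counts left out of the library totals the sums were 5111, 4648 and 5831 in the controls and 5162, 4322 and 4773 in *CARM1* KD embryos, so that *CARM1* KD 2 was then the lowest.

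Control 2 was the lowest embryo for 69 of the 134 members (51.5%, against 46.9% of all genes tested), and *CARM1* KD 2 for 37 (27.6%, against 19.4%). *CARM1* KD 3 was the highest for 40 members (29.9%, against 26.7%). With mitochondrial counts left out of the totals, control 2 was the lowest for 44.8% of members (40.8% of all genes), *CARM1* KD 2 the lowest for 23.9% (19.2%), and *CARM1* KD 3 the highest for 24.6% (20.2%). Control 2 had no count for 10 members (7.46%, against 18.3% of all genes), among them the BiP exchange factor *SIL1*, the degradation factors *HERPUD1* and *EDEM1*, the ligase *STUB1*, and *EIF2AK1*, the heme-regulated kinase of eIF2α. *STUB1*, a ligase that works with Hsp70 and Hsp90, measured 28.7 and 19.6 FPKM in control 1 and 3 and 35.6, 78.0 and 18.7 FPKM in *CARM1* KD embryos.

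Control 2 and *CARM1* KD 3, the embryos with the highest oocyte marker sums, were together the 2 highest for 20 members (14.9%, against 24.1% of all genes tested) and the 2 lowest for 26 (19.4%, against 21.0%). The 20 held *ATF6*, *ERO1B*, *PDIA3*, *NGLY1*, *TUSC3*, *SEC61A2*, *UBE2D3*, and *MAPK8*, a stress kinase. The 26 held the small channel subunits *SEC61B* and *SEC61G*, the TRAP subunits *SSR2* and *SSR3*, 4 of the oligosaccharyltransferase genes (*DAD1*, *DDOST*, *RPN1* and *RPN2*), *CALR*, *HSPA8*, *EIF2S1* and *XBP1*. The part of the oocyte transcripts in these orders was not tested.

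**Figure D5:**
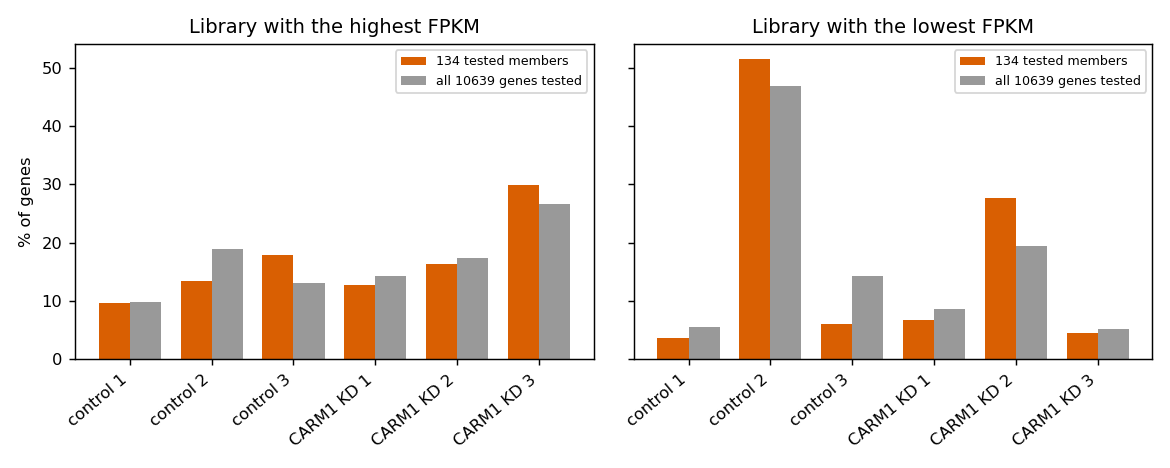
Percent of the 134 tested members and of all 10639 genes tested for which each embryo was the highest or the lowest of the 6. Control 2 is most often the lowest, for 51.5% of members and 46.9% of all genes, and *CARM1* KD 3 most often the highest, for 29.9% and 26.7%.

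The transcript to which most reads of a gene were assigned often differed between embryos. Of 79 members with at least 2 annotated transcripts and at least 100 counts in every embryo, 45 had the same leading transcript in all 6 embryos and 34 did not. For *HSPA8*, 5 different transcripts led among the 6 embryos, with lengths from 2292 to 6378 nucleotides. The gene FPKM did not follow the leading transcript, because the ratio of count to FPKM, scaled per library, differed between embryos by at most 1.43% over 105 members with at least 100 counts in each, as a fixed length per gene gives. *HSPA5* was simpler, because 1 transcript of 10 exons and 2543 nucleotides took all its counts in every embryo. For *ATF6*, the 16-exon transcript of 7513 nucleotides led in all 6.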

How the data were processed

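Single pig embryos were sequenced in 6 libraries, whose groups and replicate numbers come from the labels. Day, dose and injection come from the authors' methods. The tables deposited by the authors hold estimated counts and FPKM values (24358 genes, 47421 transcripts), and 0 columns lacked a sample. A placeholder FPKM in rows with a count of 0 is given as 0 here. Because FPKM is scaled to all mapped fragments, a library rich in mitochondrial reads has lower FPKM for other genes. Cufflinks is named in the study's methods, whereas HISAT2, StringTie and GRCh38.p10, a human build, stand in the submitters' processing notes, so that the tool behind these tables is unclear from the sources used here. Gene coordinates matched Sscrofa11.1. Of 10 members named only by identifier, 7 were named from a table of gene names and 3 from the deposited descriptions.

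The members and gene lists were chosen with earlier results of these data known. Genes at 1 FPKM or more in 2 or more libraries were tested with edgeR 4.0.16 (quasi-likelihood, TMM scaling, estimated counts rounded to whole numbers, Benjamini-Hochberg adjustment over 10639 genes) in R 4.3.3. The fit had 4 residual degrees of freedom and a common biological coefficient of variation of 1.12. Its code was tested on simulated data, with a pass condition only at a variation well below that of these embryos. Estimated counts cover no error of read assignment. The members named were those whose groups did not overlap (up to 12 by smallest p), up to 2 of highest mean FPKM in each role, and *HSPA5*, *ERN1*, *EIF2AK3*, *ATF6*, *XBP1*, *ATF4* and *DDIT3*. Other members and all ratios between members were chosen after their values were seen. Alternatives were DESeq2 1.42.0, RLE scaling, no filter, a filter of FPKM 5 in 3 libraries, limma 3.58.1 on log2(FPKM + 1) and log2(FPKM + 0.1), mitochondrial genes left out, a replicate block, each library left out and, chosen after seeing the data, controls 1 and 3 against *CARM1* KD 1 and 2. No genome sequence was used here. Values of some members are not reported here.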

Additional observations from a re-analysis of the deposited data

How the results depend on the processing

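The count of members called at an adjusted p under 0.05 was 0 in each of 15 alternatives, and the median log2 fold change of the members stayed within 0.46, the spread of that median between embryos, of its value of 0.07. The count at an unadjusted p under 0.05, 0 with edgeR as described, was 2 with DESeq2 (*UBQLN2* and *EIF2AK4*, 1.49% against 1.81% of all genes), 1 with RLE scaling (*UBQLN2*, 0.746% against 0.714%), 2 with controls 1 and 3 against *CARM1* KD 1 and 2 (*UBQLN2* and *EIF2AK4*, 1.49% against 1.81%), and 0 to 1 with 1 embryo left out (0.461 to 1.15% of all genes). Members whose groups did not overlap numbered 8 to 27 with 1 embryo left out, 16 of them without control 2 (11.9%, against 11.5% of all genes) and 27 without *CARM1* KD 3 (20.1%, against 17.5%), and 41 with both left out (30.6%, against 26.6%). Deviations from the group mean correlated at 0.18, -0.47 and -0.50 between same-numbered embryos, and at 0.54 between control 2 and *CARM1* KD 3. Such values from 3 embryos per group cannot decide whether the replicate numbers pair the embryos. With the replicate block the member count was 0 and the member median 0.22, and that of all genes moved from 0.10 to 0.22, as it did to 0.22 and 0.34 under limma with a pseudocount of 1 and 0.1. Of 433 values for 29 named genes, 374 kept their direction and 59 turned, and 14 genes turned in no alternative. The log2 fold change of *SEC61G* turned to 0.0389 under the stricter filter, 1.40 and 1.64 under limma with a pseudocount of 1 and 0.1, and 0.93 under the replicate block. In the limma fits with those pseudocounts *DAD1* turned to 0.52 and 0.53, *LMAN2* to 0.0936 and 0.0939, *HSPA8* to 0.27 and 0.27 and *HSP90AB1* to -0.13 and -0.14, and under the block *DAD1*, *HSPA8* and *HSP90AB1* turned to 0.42, 0.0633 and -0.28. *ATF4* turned to -0.0795 with DESeq2 and with RLE scaling, -0.0595 without a filter, -0.24 under the stricter filter and -0.0068 without mitochondrial genes. With controls 1 and 3 against *CARM1* KD 1 and 2, *LMAN2*, *EIF2S1*, *RBX1* and *DDIT3* turned to 0.0224, -0.23, 0.13 and 1.37. With 1 embryo left out, genes that turned ranged as follows: *ATF4* -0.56 to 0.58, *CALR* -0.66 to 0.89, *DAD1* -0.73 to 0.84, *DDIT3* -1.75 to 1.11, *DDOST* -0.34 to 1.49, *EIF2S1* -0.55 to 0.88, *HSP90AB1* -0.45 to 0.91, *HSP90B1* -0.64 to 0.35, *HSPA8* -0.54 to 0.43, *LMAN2* -0.22 to 0.12, *NFE2L2* -0.39 to 1.71, *RBX1* -0.49 to 0.25, *SEC61G* -0.63 to 0.96, *SELENOS* -0.47 to 0.40, *XBP1* -0.25 to 0.98. The cause of these turns was not tested. With 3 single embryos per group and a median standard error of 0.88, changes of the size estimated for the members were not detectable here.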

Other observations

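Genes that work beside the pathway but do not carry its code gave 0 calls with edgeR at an adjusted p under 0.05 and 0 at an unadjusted p under 0.05. The 10 genes of the ER membrane complex, which inserts membrane proteins, had 8 log2 fold changes above 0 and 2 below 0, with a median of 0.69. The split was 5 and 5 with a median of 0.10 without control 2, where the 10 genes summed to 108 FPKM against 268 to 554 FPKM elsewhere, with *EMC9* and *EMC10* at 0. *EMC6* measured 51.8, 49.0 and 89.6 FPKM in the controls and 201, 84.6 and 84.9 FPKM in *CARM1* KD embryos. The signal recognition particle and signal peptidase genes had 9 of 13 above 0 and a median of 0.26, and 4 of 13 with a median of -0.15 without control 2. Both signal peptidase forms were present, and *SEC11A* was highest in control 2 (274 FPKM against 58.3 to 157) where *SEC11C* was lowest (0.122 FPKM against 55.4 to 118). Of the 3 KDEL receptors, which return chaperones to the ER, 1 was above 0 and 2 below 0, with a median of -0.92, or -0.41 without control 2.

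The stress response targets outside the code had 5 tested genes above 0 and 5 below 0 (median -0.12, or 0.16 with 6 above and 4 below 0 without control 2). *SERP1*, a stress-associated protein of the translocon, was the single one of the 10 tested whose groups did not overlap. Of all genes tested, 3.82% were higher in this way, and *SERP1* was named after its values were seen. It measured 41.4, 27.3 and 49.4 FPKM in the controls and 56.7, 58.2 and 69.8 FPKM in *CARM1* KD embryos. Its log2 fold change was 0.52 (SE 0.61). *DNAJB9*, a cochaperone of BiP, was highest in control 2 (53.3 FPKM) and lowest in *CARM1* KD 2 (9.95 FPKM), the same 2 embryos as for *HSPA5*. *SLC7A11* had this order too (6.35 and 0.0334 FPKM). *SDF2L1* and *ATF3* had the reverse order, lowest in control 2 (6.09 and 19.7 FPKM) and highest in *CARM1* KD 2 (74.0 and 82.4 FPKM). The remaining tested targets had neither order, so that the list shared none. *ASNS*, a target of ATF4 that makes asparagine, measured 74.6, 59.1 and 13.9 FPKM in the controls and 23.7, 24.3 and 17.1 FPKM in *CARM1* KD embryos (log2 fold change -1.21, SE 0.78).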
